A study of Mus musculus musculus x M. m. domesticus and Mus musculus domesticus and Mus musculus with 12 samples.

Results

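The level of every gene in the testis of a fertile hybrid between *Mus domesticus* and *M. musculus* was set against the mid-species value, the mean of the averages of the 2 species. The hybrid is DxM, written with the mother first, a male of LEWES/EiJ mothers (domesticus) and PWK/PhJ fathers (musculus). The species were represented by males of crosses within each of them, which were DxD (LEWES/EiJ x WSB/EiJ) and MxM (PWK/PhJ x CZECHII/EiJ). All 3 genotypes are fertile, and with 3 males each they make up 9 of the 12 males measured. The other 3 males are the sterile reciprocal hybrid MxD (PWK/PhJ x LEWES/EiJ), which entered only the estimate of the spread and a few comparisons between hybrids. Males were 60 days old, RNA came from whole testis, and 1 Affymetrix Mouse Genome 430 2.0 array was used per male. Every gene with a value was taken, 7000 in all, and values are log2 expression levels. A difference of 1 is a 2-fold difference. Only 45 of these genes carry a symbol in the sources used here, so the other 6955 are given by Ensembl identifier.

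An F1 hybrid carries a copy of each autosome from each species, and with no interaction between them the expected level of a gene lies midway between the species. A gene at that midpoint is called additive, a gene at the level of one species is called dominant to that species, and a gene above or below both species is called overdominant or underdominant, or transgressive. The X and Y chromosomes are exceptions in males, which have a single copy of each. The DxM males carry the LEWES/EiJ X, as the DxD males do, and a PWK/PhJ Y. Testis holds somatic cells beside the germ line, in which mitotic spermatogonia, meiotic spermatocytes and postmeiotic spermatids follow each other.

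Some limits apply to the midpoint itself. The hybrids were not bred from DxD or MxM mice, and the WSB/EiJ and CZECHII/EiJ alleles of these males are missing from DxM. Differences among strains of one species and the effect of combining species therefore cannot be told apart. The species midpoint on the log2 scale is lower than the midpoint of the linear levels, and both are given for the strongly divergent genes named here and for the counts by class. Departures are from the log2 midpoint unless the linear one is named. The probes follow the genome of the laboratory mouse, and the part of probe mismatches to musculus alleles in any difference was not tested. The MxM males varied most, with a within-genotype variance averaged over genes of 0.0879, against 0.0147 in DxD and 0.0203 in DxM. In MxM replicate 3, 131 genes were at least 1 log2 unit lower than in each of the other 11 males. Of these, 15 differed between the species by the test below and 1 departed from the mid-species value. Most genes of this male went the other way. Over all genes its median deviation from the mid-species value was 0.068, against -0.0083 and 0.0085 in MxM replicates 1 and 2. In the dimmest 1750 genes its median deviation was 0.11. Results are given without this male where they rest on it.

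Most genes of DxM lay close to the mid-species value. The median departure, DxM mean minus mid-species value, was -0.00089, and the median of its absolute size was 0.098. In 19 genes the departure reached 1 log2 unit or more and in 173 genes 0.5 or more, within a range of -1.89 to 3.01. The upper end comes from a gene in which 2 of the 3 MxM males were at the lowest value of the arrays, so its departure is a lower bound. The departure had a median standard error of 0.089, and its 95% confidence interval lay within 0.5 log2 units of 0 in 5911 genes, which is 84.4%. By limma, a linear model fitted gene by gene that borrows information on the spread across genes, 325 of 7000 genes (4.64%) departed from the mid-species value after Benjamini-Hochberg adjustment at 5%. At an unadjusted p under 0.05 there were 1292 genes (18.5%). Of the 325 genes, 110 (1.57%) were above and 215 (3.07%) below the mid-species value, so that 66.2% of departures were downward. Over all genes the split by mean was even, with 3485 above and 3515 below.

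The number of departures rests on the spread that the 4 genotypes share in the model and on the treatment of same-numbered males. The main model takes all males as independent. With a term (block) for the replicate number of each male there were 790 departures, which included all 325, and 62.2% were downward. With a separate variance for each genotype only 19 genes departed after adjustment, 7 above and 12 below, and 1085 at an unadjusted p under 0.05. Without MxM replicate 3 there were 438 departures, of which 53.7% were downward, and 312 of the 325 genes departed in the same direction in both fits. By the same model 2230 genes (31.9%) differed between DxD and MxM, 844 (12.1%) between DxM and DxD and 1181 (16.9%) between DxM and MxM. The level of DxM was above DxD in 409 genes (5.84%) and below it in 435 (6.21%), and it was above MxM in 456 (6.51%) and below it in 725 (10.4%). In whole testis, fewer cells of a type and less RNA per cell cannot be told apart, and this holds for every level given here.

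Genes were then sorted by these comparisons. A gene was counted as outside both species where DxM differed from DxD and from MxM in the same direction. It was counted as dominant to a species where the species differed, DxM departed from the mid-species value and differed from the other species, and no difference from that species was detected. It was counted as additive where the species differed, DxM lay between them and differed from both, and no departure was detected. On this basis 22 genes (0.314%) were above both species and 88 (1.26%) below both. A further 80 genes (1.14%) were dominant to domesticus, 64 (0.914%) were dominant to musculus and 201 (2.87%) were additive. In 15 genes (0.214%) DxM lay between the species and differed from both, but departed from the midpoint as well. These counts, and the position given below, take in X-linked genes. For those, likeness to DxD is not dominance between alleles, as both carry the LEWES/EiJ X. A chromosome was known here for 2037 genes only, so X-linked genes were not sorted apart.

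The larger part of the genes could not be placed. In 1843 genes the species differed and no departure was detected, but DxM was not separated from both species. In 56 genes only the departure passed, and in 4631 genes no difference was detected. The sorting of a gene depends on whether 3 males per genotype could resolve its species difference. The median absolute species difference was 0.98 in the additive genes and 0.44 in those not separated from both species.

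**Figure D1:**
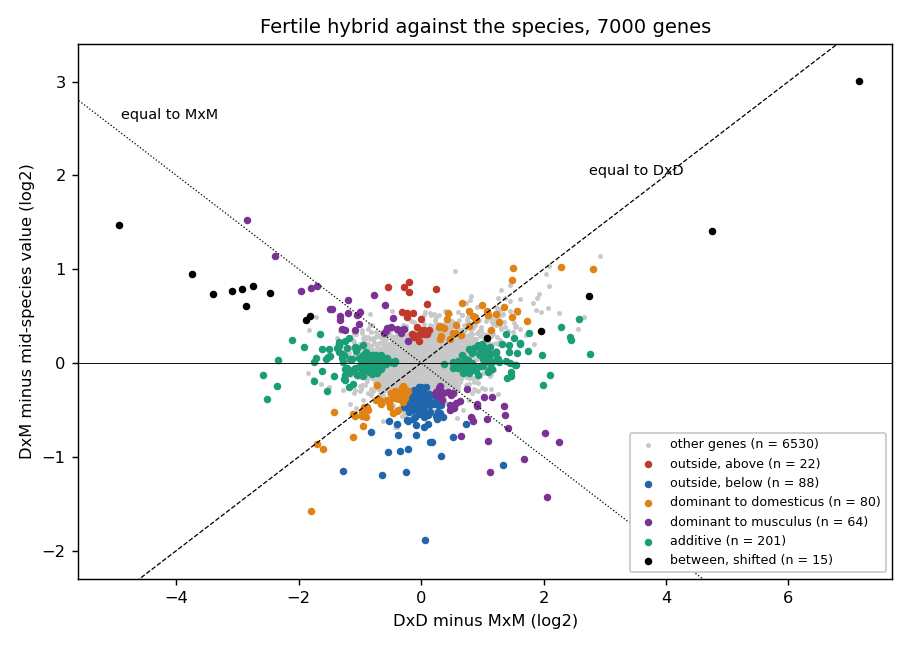
Departure of DxM from the mid-species value (vertical, log2) against the difference between DxD and MxM (horizontal, log2) for 7000 genes, with 1 point per gene coloured by its class. On the horizontal line DxM equals the mid-species value, on the dashed line it equals DxD and on the dotted line MxM, and the 15 genes between the species but shifted from the midpoint all lie above the horizontal line.

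More genes of DxM were below both species than above both. The 3 DxM males were above all 6 males of the species in 153 genes (2.19%) and below all 6 in 335 genes (4.79%). All 110 genes counted as outside both species were among these. The absolute departure had a median of 0.42 in the 22 genes above and 0.47 in the 88 genes below. The species themselves differed in 4 of the 22 and 23 of the 88, beside 31.9% of all genes. Without MxM replicate 3, 20 of the 22 and 69 of the 88 genes kept their class. No gene was outside both species with a separate variance for each genotype. At the edge of the class, the larger of the 2 adjusted p-values was 0.0495 in the last gene inside, with a departure of -0.25, and 0.0502 in the first gene left out, with a departure of -0.42.

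The deepest reduction was in ENSMUSG00000027827, a gene on chromosome 3 that is most strongly induced in meiotic cells by the study's grouping. The 3 DxM males measured 5.09, 5.17 and 5.14. These levels are low in the measured range, with at most 105 of the 7000 genes lower in any DxM array. The DxD males measured 6.89, 7.11 and 7.15, and the MxM males 6.85, 7.13 and 6.98. The species overlapped each other almost completely, and every DxM male was more than 1 log2 unit below them. The departure was -1.89 (standard error 0.075, limma adjusted p = 1.16e-07, n = 3 males per genotype), a 3.70-fold lower level than the mid-species value. With a separate variance for each genotype the adjusted p was 0.00112, and it was lower under each of the other 20 alternatives that could be run. The alternative that left out the dimmest 25% of genes left out this gene.

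In ENSMUSG00000019878 the species differed and DxM was again below both. The DxM males measured 6.71, 6.92 and 7.24, the DxD males 7.60, 7.90 and 7.99, and the MxM males 8.22, 8.54 and 8.62. The 3 genotypes did not overlap. The departure was -1.19 (standard error 0.17, limma adjusted p = 0.00178), a 2.28-fold lower level, and the adjusted p was 0.134 with a separate variance.

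Among genes above both species, ENSMUSG00000003644 on chromosome 4 departed most. The DxM males measured 8.79, 8.58 and 8.51, the DxD males 7.79, 7.52 and 7.68, and the MxM males 7.78, 7.81 and 8.01. The males of the species overlapped, and the lowest DxM male was above the highest of them. The departure was 0.86 (standard error 0.12, limma adjusted p = 0.00173), a 1.82-fold higher level, with an adjusted p of 0.0998 under a separate variance. In ENSMUSG00000019791 the DxM males measured 9.03, 9.16 and 9.15, against 8.11, 8.14 and 8.21 in DxD and 8.20, 8.43 and 8.68 in MxM. Here too DxM was above all 6 males, with a departure of 0.81 (standard error 0.097, limma adjusted p = 0.000731) and an adjusted p of 0.0961 under a separate variance. These 4 genes were chosen for their size, so their separation from the species follows from the choice.

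Dominance was found toward both species. Of the 80 genes dominant to domesticus, DxM was with the higher species in 32 and with the lower in 48. Of the 64 genes dominant to musculus, DxM was with the higher species in 29 and with the lower in 35. Over all genes the higher species was DxD in 983 (14%) and MxM in 1247 (17.8%). Without MxM replicate 3, 68 of the 80 and 55 of the 64 genes kept their class. Leaving out MxM replicate 1 instead raised the genes dominant to domesticus to 140, and with a separate variance 0 genes were dominant to domesticus and 6 to musculus. Not being separated from a species does not show that the hybrid has its level, and in 31 of the 80 and 15 of the 64 genes the DxM males lay beyond all 6 males of the species.

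ENSMUSG00000005804, on chromosome 2, was at the higher domesticus level in DxM. The DxM males measured 7.93, 7.96 and 7.96 and the DxD males 7.95, 8.15 and 8.10. The MxM males measured 6.36, 5.99 and 4.99, all below both other genotypes. The departure was 1.02 (standard error 0.22, limma adjusted p = 0.0232), and DxM was 0.12 below DxD (adjusted p = 0.846). The departure is set in part by MxM replicate 3, the lowest male. Without it the departure was 0.83 with an adjusted p of 0.000441, while over all alternatives the adjusted p ran from 0.000441 to 0.278 and the call was lost under 9 of 21. From the linear midpoint, the mean of the linear levels, DxM departed by 0.59 on the log2 scale (linear-scale adjusted p = 0.00236).

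In ENSMUSG00000073421 DxM was at the lower domesticus level. The DxM males measured 7.05, 6.96 and 6.90, within or just below the range of the DxD males at 7.06, 6.91 and 7.30. The MxM males measured 8.77, 8.57 and 8.73 and did not overlap either. The departure was -0.92 (standard error 0.088, limma adjusted p = 0.000177), and it passed under all 22 alternatives, at most at an adjusted p of 0.0398. The departure from the linear midpoint was -1.13.

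ENSMUSG00000032741 was at the higher musculus level in DxM. The DxM males measured 8.67, 8.04 and 8.47 and overlapped the MxM males at 8.65, 8.12 and 8.12. The DxD males measured 5.75, 5.34 and 5.27, more than 2 log2 units lower. The departure was 1.52 (standard error 0.19, limma adjusted p = 0.000886), and DxM differed from MxM by 0.10 (adjusted p = 0.807). Under a separate variance the adjusted p of the departure was 0.122. From the linear midpoint the departure was 0.91 (linear-scale adjusted p = 0.0245).

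In ENSMUSG00000042607 DxM was at or below the lower musculus level. The DxM males measured 5.79, 5.48 and 5.91, the MxM males 5.98, 6.23 and 6.18, and the DxD males 8.09, 8.24 and 8.22. No DxM male overlapped either species. The difference between DxM and MxM was -0.40 (limma adjusted p = 0.0641), just outside the threshold for a gene below both species, and the departure was -1.43 (standard error 0.12, adjusted p = 5.85e-05). With a separate variance the adjusted p of the departure was 0.124. From the linear midpoint the departure was -1.76 (linear-scale adjusted p = 0.000145).

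**Figure D2:**
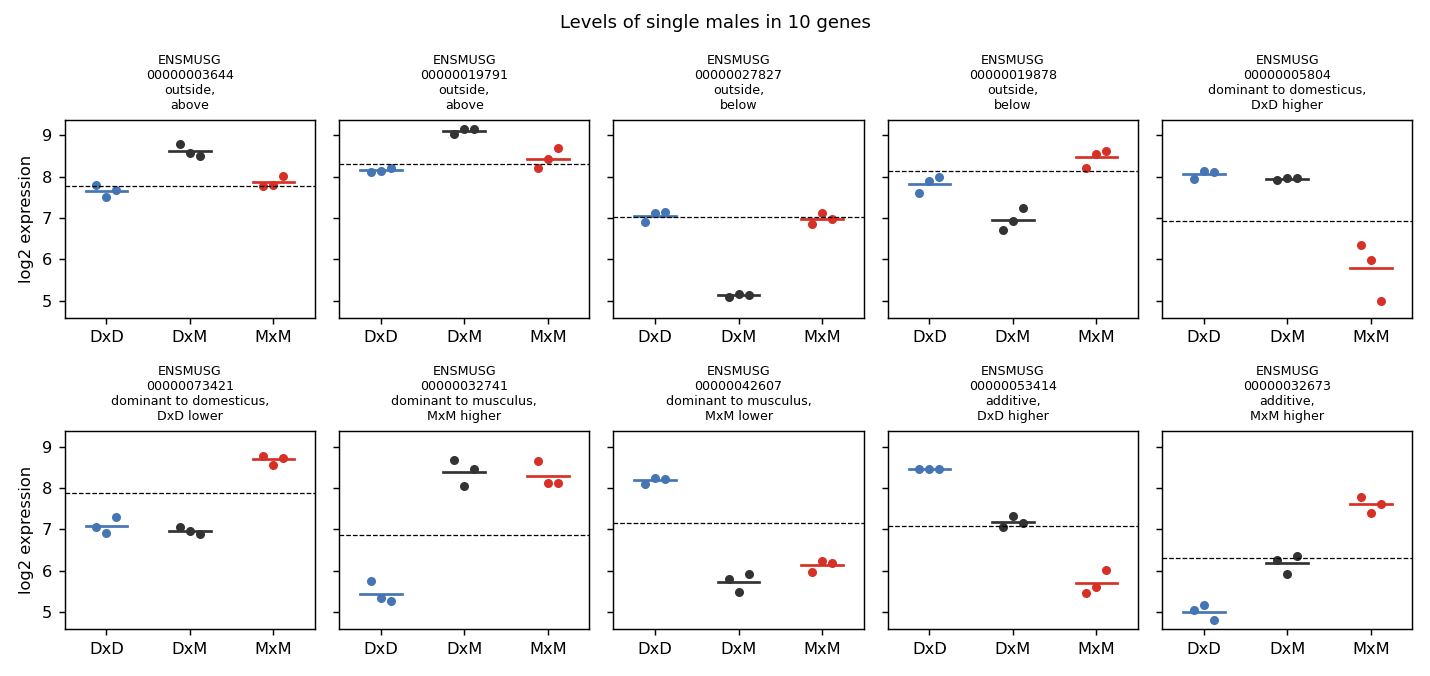
Log2 expression level (vertical) of each of the 9 fertile males in 10 genes, with 1 panel per gene and 1 point per male, and with short lines at genotype means and a dashed line at the mid-species value. The 3 DxM males are apart from both species in the 4 genes outside both, next to one species in the 4 dominant genes, and between the species in the 2 additive genes.

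The additive genes showed both species and the hybrid as separate levels. Of 201 genes, 90 had the higher level in DxD and 111 in MxM, and 166 kept the class without MxM replicate 3. The 95% confidence interval of the departure had a median half-width of 0.17, against the median species difference of 0.98. Only 1 gene was additive by these tests with a separate variance.

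The largest additive difference with DxD higher was in ENSMUSG00000053414. The DxD males measured 8.46, 8.45 and 8.47, the DxM males 7.05, 7.32 and 7.16, and the MxM males 5.45, 5.61 and 6.03. The 3 genotypes did not overlap. The species differed by 2.76 (limma adjusted p = 8.17e-08), and DxM departed from the midpoint by 0.097 (95% confidence interval -0.15 to 0.34, adjusted p = 0.707). It was below the linear midpoint, by -0.48 on the log2 scale (linear-scale adjusted p = 0.00185), so the gene was additive on the log2 scale and not on the linear one.

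In the other direction, ENSMUSG00000032673 measured 5.05, 5.18 and 4.81 in the DxD males, 6.26, 5.92 and 6.35 in the DxM males and 7.79, 7.40 and 7.62 in the MxM males. Again no males of different genotypes overlapped. The species difference was -2.59 (limma adjusted p = 1.34e-06) and the departure -0.13 (95% confidence interval -0.47 to 0.21, adjusted p = 0.712). From the linear midpoint the departure was -0.64, at a linear-scale adjusted p of 0.0502.

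The place of DxM between the species was also measured over all 2230 genes that differed between them, as a position that is 1 at the DxD mean, -1 at the MxM mean and 0 at the midpoint. The median position was 0.096, with quartiles at -0.36 and 0.53. The medians of the 3 DxM males were 0.14, 0.0019 and 0.10 (mean 0.080, SD 0.071). In 1855 of the genes (83.2%) DxM lay between the species means, and in 1238 (55.5%) it was closer to DxD. The lowest of the 3 males was at the midpoint, and the median moved with the MxM males included. Leaving out MxM replicate 1 gave 0.23 and leaving out MxM replicate 3 gave 0.078, over the genes that differed in each case. This is a description with no test.

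The position varied with the size of the species difference. Turned so that 1 is the higher species, the median position was -0.11 in the 1247 genes that differed by under 0.5, 0.030 in 735 genes that differed by 0.5 to 1, 0.18 in 215 genes that differed by 1 to 2, and 0.43 in 33 genes that differed by 2 or more. In the last group 26 of 33 genes were closer to the higher species. An equal mix of the 2 species, averaged on the linear scale, would lie at 0.22 for differences of 1 to 2. For differences of 2 or more it would lie at 0.42, so the pooled median of DxM was near that mix in the strongly divergent genes. The directions differed. At differences of 1 or more DxM was at 0.27 where DxD was higher (131 genes, mix at 0.23). It was at 0.15 where MxM was higher (117 genes, mix at 0.22). Over all 2230 genes it was at 0.084 where DxD was higher and at -0.11 where MxM was higher. In genes that differed by under 0.5 the mix would lie at 0.076, on the other side of the midpoint from DxM.

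**Figure D3:**
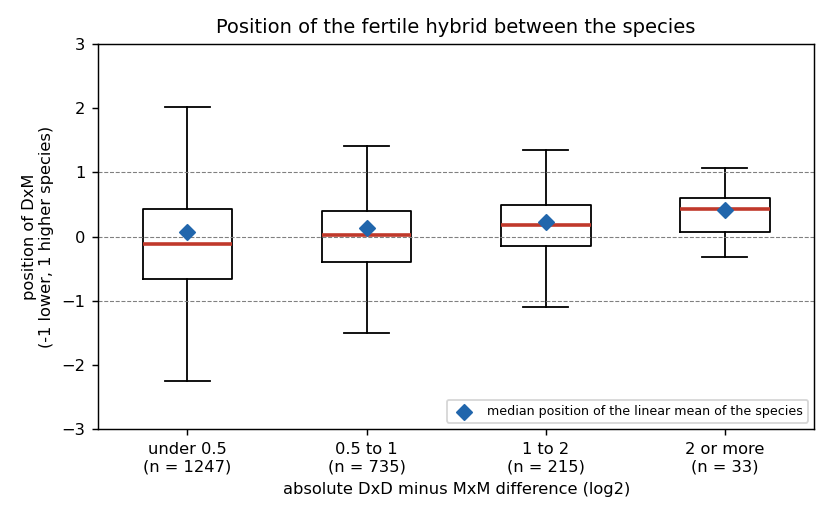
Position of DxM between the species (vertical, -1 at the lower and 1 at the higher species, 0 at the log2 midpoint) for 2230 genes that differed between them, by the absolute species difference (log2). Boxes span the quartiles with the median in red and whiskers reach at most 1.5 times the box, diamonds mark the median position of the linear mean of the species, and the median rises from -0.11 to 0.43 across the 4 groups.

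The scale on which the midpoint is taken therefore decided part of the sorting. Of the 15 genes between the species but shifted, all 15 were above the log2 midpoint, with a median species difference of 2.86, and 14 of them were additive when the same tests were run on linear levels. Of the 201 additive genes, 152 were additive on the linear scale and 9 departed there, all 9 downward. Of the genes outside both species, 21 of the 22 above and 76 of the 88 below kept that class, and 21 and 86 departed on the linear scale. The class was kept by 70 of the 80 genes dominant to domesticus and 55 of the 64 dominant to musculus. Over 248 genes with a species difference of 1 or more, 45 departed upward and 21 downward on the log2 scale, against 22 upward and 35 downward on the linear scale. Over all genes the linear scale gave 356 departures, of which 74.2% were downward.

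The classes also followed the size of the species difference. Additive genes numbered 6 of the 1247 genes that differed by under 0.5, 98 of 735 at 0.5 to 1, 86 of 215 at 1 to 2 and 11 of 33 at 2 or more. Dominance to domesticus was counted in 33, 27, 18 and 2 genes of these groups and dominance to musculus in 20, 15, 24 and 5. The smaller differences are within reach of the tests in fewer genes, so these counts do not compare how common each pattern is.

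Departures were spread unevenly over expression levels. With all genes ranked by mean level and cut into 4 equal groups, 25 of the dimmest 1750 genes were above and 87 below the mid-species value (6.4%), and the median departure was -0.038. In the brightest 1750 genes, 21 were above and 15 below (2.06%), with a median of 0.0073. Genes below both species numbered 33 in the dimmest and 7 in the brightest group, and genes above both 2 and 7. Without MxM replicate 3 the dimmest group had 51 above and 92 below, with a median of -0.023, and the brightest 34 above and 18 below. Leaving out the dimmest 25% of genes reduced the downward share of departures from 66.2% to 59.9% and left 222 departures. The part of the array's lower limit of measurement in these counts was not tested.

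The study assigned genes to the testis cell type in which they are most strongly induced, and this assignment was used here for 1997 genes on chromosomes 1 to 5, of which 1102 have a cell type. The groups are described by counts and medians only, beside 4.64% of departures over all genes. Among 367 mitotic genes, induced most in spermatogonia, 7 were above and 1 below the mid-species value (2.18%). By mean, 69.5% of mitotic genes were above it, against 49.8% of all genes. The median deviation of mitotic genes from the mid-species value was 0.045, 0.096 and 0.059 in the 3 DxM males. It ran from -0.076 to -0.018 in DxD and from -0.0093 to 0.15 in MxM, so the DxM males were above all DxD males. Of the MxM males, only replicate 3, at 0.15, was above any DxM male, and the other two were below all of them. Without MxM replicate 3 20 mitotic genes were above and 1 below, beside 203 above and 235 below among all 7000 genes in that fit.

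Postmeiotic genes, induced most in round spermatids, had the highest share of departures among the cell types. Of 269 genes, 5 were above and 20 below the mid-species value (9.29%). Of these 269, 8 were below both species, 7 dominant to domesticus and 5 dominant to musculus. Over all genes these classes held 1.26%, 1.14% and 0.914%, and the counts here are small. The group as a whole was not shifted, with a median departure of -0.0037, and the medians of the DxM males of -0.030, -0.0028 and 0.0048 overlapped those of both species. The counts without MxM replicate 3 were 6 above and 22 below, beside 203 above and 235 below among all 7000 genes in that fit.

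Of 324 meiotic genes, induced most in spermatocytes, 3 were above and 11 below (4.32%). Of 142 somatic genes, induced most in Sertoli cells, 3 were above and 4 below (4.93%). Of 895 genes with no cell type, 13 were above and 22 below (3.91%). Across the 5 chromosomes the share of departures ran from 3.22% on chromosome 4 to 6.02% on chromosome 1. In the sterile MxD males, 1977 genes (28.2%) departed from the same mid-species value, and the median departure was 0.23 in mitotic and -0.22 in postmeiotic genes. The hybrids share that value, so these numbers are given beside those of DxM without a comparison.

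**Figure D4:**
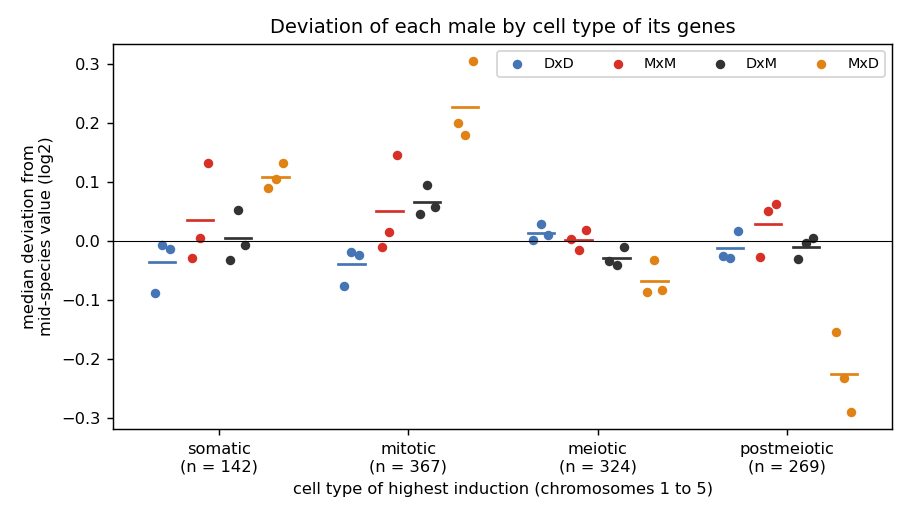
Median deviation from the mid-species value (vertical, log2) of each male over the genes assigned to each testis cell type on chromosomes 1 to 5, with 1 point per male and lines at genotype means. The DxM males are at 0.045 to 0.096 in mitotic genes and between -0.030 and 0.0048 in postmeiotic genes, and the MxD males are the farthest from 0 in both.

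Of the 45 genes with a symbol, 32 are X-linked and postmeiotic. The study chose them on these males for a higher level in MxD than in the fertile genotypes, DxM among them, so they are no independent evidence of a low level in DxM. Of the 32 genes, 5 were below the mid-species value and 0 above it by limma after adjustment, beside 3.07% of all genes below and 1.57% above. At an unadjusted p under 0.05 there were 15 below and 0 above, beside 18.5% of all genes in either direction. By mean, 27 were below and 5 above, beside 3515 below and 3485 above over all genes. The median departure was -0.17 in a range of -0.67 to 0.24. In 21 genes DxM was lower than both species by mean, a count for which no share over all genes was taken. The 3 DxM males were below all 6 males of the species in 7 of the 32 genes, beside 4.79% of all genes. A single X cannot be at a midpoint of alleles, and DxM carries the LEWES/EiJ X that DxD also carries. DxM differed from DxD in 3 of the 32 genes, beside 12.1% of all genes, with a median difference of -0.061. It differed from MxM in 13, beside 16.9% of all genes, with a median of -0.22. DxD and MxM differed in 9, beside 31.9% of all genes, and all 9 were higher in MxM.

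The shift in the X-linked genes did not separate DxM from DxD. The mean deviation of the 32 genes from the mid-species value was -0.24, -0.11 and -0.16 in the DxM males and -0.14, -0.11 and -0.036 in the DxD males, which overlap. It was -0.061, 0.14 and 0.22 in the MxM males, all above the DxM males. The sterile MxD males were at 0.51 to 0.56, above all 9 fertile males.

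The 5 X-linked genes below the mid-species value were each below all 6 males of the species in DxM. They are 1110059M19Rik (start at position 42444081 of chromosome X, NCBI build 37), 4930402K13Rik (8681688), AL773568.19 (160198169), Efhc2 (16709262) and 1600014K23Rik (82495018). In 1110059M19Rik the DxM males measured 5.92, 5.79 and 5.88, the DxD males 6.06, 6.09 and 6.01 and the MxM males 6.88, 7.02 and 7.13. Here DxM and DxD were both about 1 log2 unit below MxM, and the gene was sorted as dominant to domesticus. With the same single X in both, this is not dominance between alleles. The departure was -0.67 (standard error 0.070, limma adjusted p = 0.000303), and DxM was -0.19 from DxD (adjusted p = 0.163). The adjusted p of the departure was 0.0612 with a separate variance.

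3 of these genes were below both species. In 4930402K13Rik the DxM males measured 6.22, 6.24 and 6.41, the DxD males 6.70, 6.80 and 6.86 and the MxM males 6.60, 6.70 and 6.90, so the species overlapped and DxM did not. The departure was -0.47 (standard error 0.081, limma adjusted p = 0.00658), with an adjusted p of 0.114 under a separate variance. In Efhc2, which encodes a protein with an EF-hand domain, the DxM males measured 8.40, 8.42 and 8.51, the DxD males 8.74, 8.70 and 8.80 and the MxM males 8.65, 8.80 and 8.88. The departure was -0.32 (standard error 0.072, limma adjusted p = 0.0280). Without MxM replicate 3 the departure of Efhc2 still passed (adjusted p = 0.0337) but it was no longer below both species, and over 22 alternatives its adjusted p ran from 0.0113 to 0.130.

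The remaining genes were 1600014K23Rik, also sorted as below both species, and AL773568.19, which was not. In 1600014K23Rik the DxM males measured 7.67, 7.64 and 7.52, the DxD males 7.85, 7.78 and 7.88 and the MxM males 7.95, 7.91 and 8.003, with a departure of -0.28 (standard error 0.056, limma adjusted p = 0.0140). In AL773568.19 the DxM males measured 8.002, 8.05 and 8.04, the DxD males 8.18, 8.18 and 8.38 and the MxM males 8.30, 8.53 and 8.59, with a departure of -0.33 (standard error 0.078, limma adjusted p = 0.0358). No DxM male overlapped the species in either gene. The departure of 1600014K23Rik was lost under 4 of 22 alternatives, with adjusted p-values of up to 0.197. AL773568.19 was not separated from DxD (adjusted p = 0.160) and lost its departure under 12 of 22 alternatives.

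The X-linked genes that did not pass include several with known roles. In Piga, which encodes a subunit of the enzyme for the first step of glycosylphosphatidylinositol anchor synthesis, the departure was -0.32 (adjusted p = 0.0718). In Actrt1, an actin-related gene of the sperm head, it was -0.33 (adjusted p = 0.105), and in Cylc1, which encodes the sperm head protein cylicin, -0.12 (adjusted p = 0.662). Cypt5 and Cypt3, of a family of cysteine-rich perinuclear theca genes, had departures of -0.034 and 0.079, with adjusted p-values of 0.878 and 0.768.

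**Figure D5:**
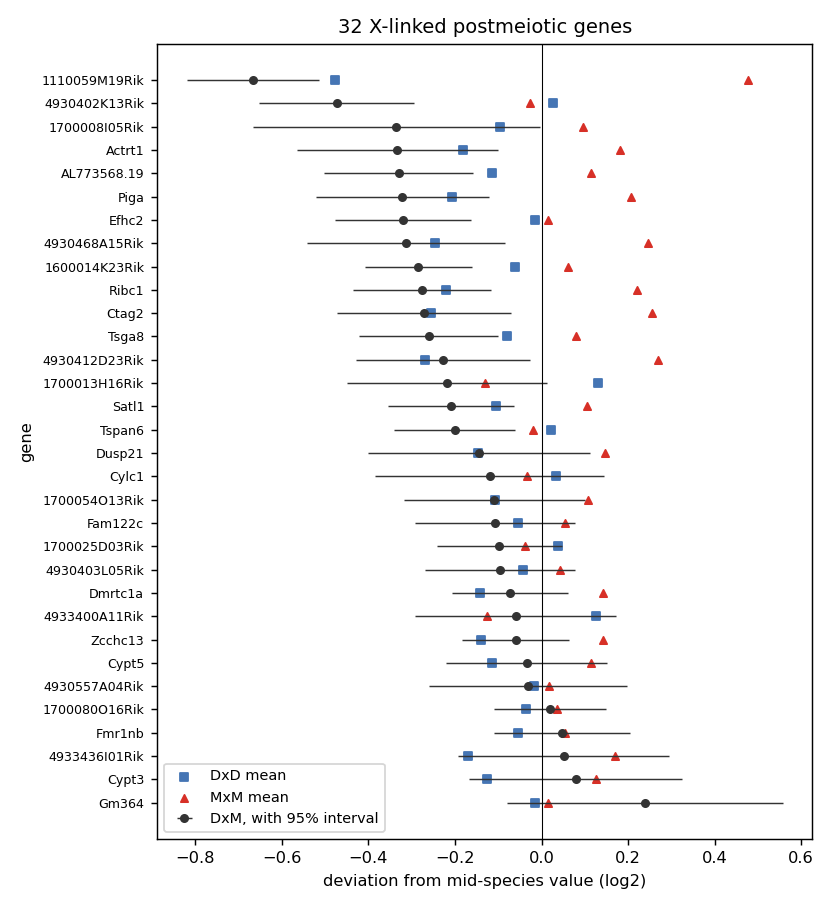
Deviation from the mid-species value (horizontal, log2) of DxM with its 95% confidence interval (circle and line), of the DxD mean (square) and of the MxM mean (triangle) for 32 X-linked postmeiotic genes (vertical, ordered by the DxM value). The DxM value is left of 0 in 27 genes, and 1110059M19Rik is farthest left at -0.67.

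The other 13 named genes are autosomal, 9 mitotic and 4 postmeiotic by the study's grouping, and were chosen there for their level in MxD. None departed from the mid-species value by limma after adjustment, and none at an unadjusted p under 0.05. The mitotic genes had departures between -0.11 and 0.070 and the postmeiotic genes between 0.064 and 0.51. Brwd1, on chromosome 16, encodes a bromodomain and WD repeat protein that is needed for male fertility. Its DxM males measured 6.54, 6.55 and 6.49, below the DxD males at 6.80, 6.72 and 6.68 and overlapping the MxM males at 6.53, 6.50 and 6.60. DxM was -0.21 from DxD (limma adjusted p = 0.0478), and the departure was -0.11 (95% confidence interval -0.23 to 0.0029, adjusted p = 0.285).

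Cyp17a1, on chromosome 19, is an enzyme of androgen synthesis in Leydig cells, although it stands among the postmeiotic genes in the study's grouping. Its DxM males measured 10.6, 10.7 and 10.4 and overlapped both species, since the DxD males ranged from 9.84 to 10.6 and the MxM males from 9.54 to 10.7. The departure was 0.51 (95% confidence interval -0.0028 to 1.02, limma adjusted p = 0.273). The highest MxM male was replicate 3, and without it the departure was 0.69 with an adjusted p of 0.0208, in a range of 0.0208 to 0.627 over 22 alternatives.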

How the data were processed

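The log2 expression levels that the authors deposited were analysed without further normalization for 7000 genes and 12 whole testes. Per the methods, the authors grouped probes by Ensembl gene through BRAINARRAY chip description files (version 11, Ensembl 52, NCBI build 37), obtained 1 level per gene with PLIER, dropped genes not detected in every male and applied quantile normalization across the 12 arrays. Precision is limited by the number of arrays, which have no sequencing depth. Genotypes come from the sample labels, which do not say whether males were littermates.

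A model with 1 mean per genotype and no block was fitted to every gene (limma 3.58.1, R 4.3.3), and all tests were two-sided with Benjamini-Hochberg adjustment over 7000 genes at 5%. The procedure was tested on simulated data. The alternatives were a separate variance per genotype, only the 9 fertile males, array weights, and a trend and robust prior. Further ones were replicate blocks, other filters, scales and thresholds, and fits that left out single males. The methods test pairs of genotypes with Student's t-tests, which the separate variance does not reproduce. Leaving out the genes far lower in MxM replicate 3 was chosen after seeing the data.

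The classes, gene lists and alternatives were chosen with earlier results of these data known. Genes given by identifier are those with the largest departure (additive genes, species difference) in each class and direction that kept their class without MxM replicate 3, did not overlap the species they differ from and had no fertile male at the lowest value of the arrays, 2 per direction outside both species and 1 otherwise. A symbol was also to be required, but the sources used here pair symbols with 45 genes only. For the same reason the check of testis cell types by marker genes and the 22 gene lists were void, since only 2 of their symbols matched. The plots were made in Python 3.11.15 (matplotlib 3.10.9).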

Additional observations from a re-analysis of the deposited data

Results flagged for a closer look

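The DxM and MxD males differed in 3 of the 10 genes given by identifier, by limma after Benjamini-Hochberg adjustment over all genes, beside 455 of 7000 genes (6.5%) that differed between the hybrids. The 10 genes were chosen for large departures of DxM or large species differences, and the same DxM values enter this comparison. The shares therefore cannot be weighed against each other. In ENSMUSG00000042607 DxM was lower than MxD by -1.85 (adjusted p = 7.93e-05). The 3 MxD males measured 7.39, 7.51 and 7.83, between the species, and departed from the mid-species value by 0.42, where DxM departed by -1.43. In ENSMUSG00000027827 the difference was -0.67 (adjusted p = 0.00137), and both hybrids were below both species, with MxD males at 5.80, 5.82 and 5.78 and departures of -1.89 in DxM and -1.22 in MxD. In ENSMUSG00000003644 DxM was higher by 0.80 (adjusted p = 0.00669), with departures of 0.86 in DxM and 0.067 in MxD. The MxD males of that gene, at 8.15, 7.71 and 7.63, overlapped the males of the species. The reciprocal hybrids have the same autosomal alleles and differ in the X, the Y, the mitochondria and the direction of inheritance, and MxD is sterile. The part of each of these was not tested.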

How the results depend on the processing

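Of 8 summary results, only the median position has a direction, which no alternative changed, and the counts moved widely. With a separate variance for each genotype, 7 genes were above and 12 below the mid-species value, 0 outside above, 0 outside below, 0 dominant to domesticus, 6 dominant to musculus and 1 additive, against 1085 departures at an unadjusted p under 0.05. With array weights these were 241 above, 385 below, 42 outside above, 136 dominant to domesticus and 133 dominant to musculus. The replicate block gave 299 above, 491 below, 64 outside above, 188 outside below, 214 and 166 dominant to domesticus and musculus, and 386 additive. Replicate 1 against the others as a block gave 294, 494, 63, 185, 225, 152 and 381, in the same order. With all replicate 1 arrays left out the counts were 52, 98, 11, 50, 39, 34 and 122. At a Benjamini-Hochberg threshold of 1% they were 49, 86, 9, 27, 29, 32 and 78. A minimum size of 0.5 left 47 above, 71 below, 6 outside above, 24 outside below and 47 dominant to domesticus, and without the dimmest 25% of genes 133 were below and 52 dominant to domesticus. Leaving out each of the 9 fertile males in turn gave 55 to 203 above, 99 to 304 below, 12 to 37 outside above, 42 to 106 outside below, 35 to 140 dominant to domesticus, 36 to 89 dominant to musculus, 108 to 223 additive and a median position of 0.058 to 0.23. The highest counts were without MxM replicate 3 for genes above, outside above, dominant to musculus and additive, and without MxM replicate 1 for the others and the position. The other 92 values of these results stayed within 1.5 times the main count or 1 SD, as did all counts without the genes far lower in MxM replicate 3. For single genes, 322 values kept their side of the threshold, 44 lost it and 1 gained it. The causes were not tested.

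Same-numbered males of DxD, MxM and DxM deviated from their genotype means with correlations across genes of 0.57 to 0.75 (replicate 1), 0.074 to 0.43 (replicate 2) and -0.051 to 0.31 (replicate 3). As not all exceeded 0.1, the main fit has no block, which does not show that the males are independent. The replicate 1 males shared a deviation that the main fit leaves in the spread. The block raised the departures to 790 and the genes that differed between the species to 3109.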
